A study of Saccharomyces cerevisiae with 6 samples.

Results

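The 48 genes described here come from Saccharomyces cerevisiae (budding yeast). They encode enzymes of the tricarboxylic acid (TCA) cycle and nuclear subunits of the mitochondrial respiratory chain and ATP synthase. They were chosen by name, as the probe sets whose gene symbol in the platform annotation equals that of a listed gene, a rule that reads gene names and no measured values. They are 48 of the 5173 genes tested, and all 48 passed the filter on low signals. The series compared yeast given the DNA cross-linking agent azinomycin B with untreated growth on 6 one-colour Affymetrix arrays. Every culture grew in YPD, a rich glucose medium, to an optical density of 1.0 and then for a further 6 h. The control group has 3 arrays with no drug, the high dose group 2 arrays at 100 µg/ml, and the low dose group 1 array at 10 µg/ml. Azinomycin B was added in a little ethanol, and the labels mention no ethanol for the controls. No strain, ploidy or mating type is given in the labels, and they name no genotype difference between the groups. The array labels are A100, B100 and 10, each with 1 control and 1 treated array, which are called a pair here. The labels name no experiments. From these labels alone, the A100 and B100 arrays are taken here as 1 experiment and the arrays labelled 10 as another, the low dose experiment. Separate cultures for the arrays are not stated, so the tests measure only the spread between these arrays.

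The TCA cycle oxidises acetyl-CoA in the mitochondrial matrix and passes electrons to NAD and, through succinate dehydrogenase, to ubiquinone. Budding yeast has no proton-pumping complex I and oxidises NADH with single-subunit dehydrogenases on either face of the inner membrane. Electrons then pass through the cytochrome bc1 complex (complex III) and cytochrome oxidase (complex IV), and the proton gradient drives ATP synthase. Yeast represses many of these genes during fermentation of glucose and induces them as the sugar runs out, in part through the Hap2/3/4/5 activator. A few subunits of complexes III and IV and of ATP synthase are encoded in mitochondrial DNA, so the genes listed here belong only to the nuclear part.

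Each value is a MAS5 signal, a linear measure of 1 probe set. Differences are given on the scale of log2(signal + 16), on which -1 is a halving of a strong signal. The members gave strong signals, from 199 to 11292, so the added constant hardly matters for them. Their mean levels lay from the 74.8th to the 99.6th percentile of the genes tested, with 44 of the 48 above the 90th. Over all tested probe sets r was 0.980 between the A100 and B100 controls, while the low dose experiment's control correlated at 0.903 and 0.910 with them. The treated B100 array correlated at 0.979 with its control and the treated A100 array at 0.906. For ACT1 the 3′ signal was 1.44 to 2.09 times the 5′ signal, a measure of RNA degradation. It was highest on the treated A100 array (2.09), but the B100 control was close to it (2.05). Levels in a culture cannot tell fewer transcripts per cell from a change in the mix of cells.

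Most members were lower at 100 µg/ml than in the control of the same label, clearly so on the A100 array and by less on the B100 array, where 16 of the 48 changed direction with the scaling of the arrays and 3 more came to 0. In the A100 pair 47 of 48 members were lower, against 48.2% of all genes tested, with a median difference of -0.55 against 0.03 for all genes. In the B100 pair 42 of 48 were lower, against 44.2% of all genes, and the median was -0.19 against 0.05. The same 42 members were lower in both pairs, against 26.6% of all genes. In the A100 pair 9 members were at least 2-fold lower, against 5.45% of all genes, namely ACO1, IDH1, KGD1, FUM1, SDH1, NDE2, CYT1, ATP4 and ATP20. None was in the B100 pair, where the lowest value was -0.54 for QCR8. The difference was more negative in the A100 than in the B100 pair for 40 of 48 members, against 2634 of all 5173 genes. Across the 48 members the A100 and B100 differences did not follow each other (r = -0.048, n = 48 genes on the same 4 arrays, a description), while across all 5173 genes r was 0.288. A single treated and a single control array make up each pair, so these differences have no replicate check.

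**Figure D1:**
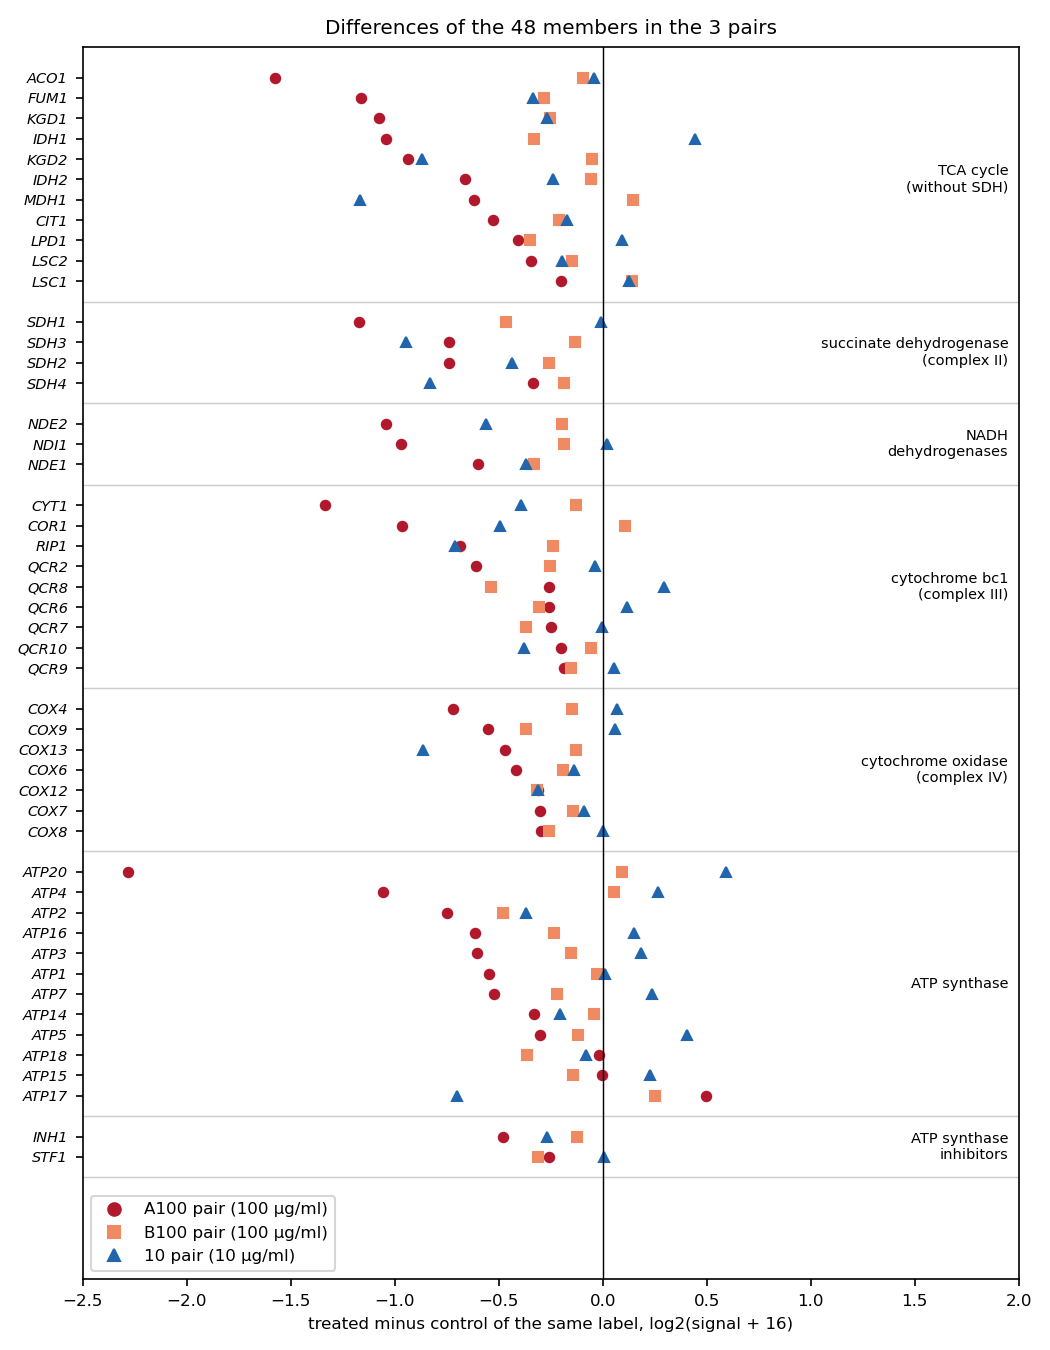
Treated minus control of the same label on the log2(signal + 16) scale for each of the 48 members, ordered by class and by the A100 value; circles are the A100 pair and squares the B100 pair (both 100 µg/ml), triangles the 10 pair (10 µg/ml). In the A100 pair 47 of 48 circles lie left of 0, most B100 squares lie between -0.54 and 0, and the triangles scatter to both sides.

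How the arrays are scaled bears on the B100 result. With the deposited values, the 95th percentile of the signals of all genes, the range where most members lie, was itself lower on the treated array by log2 differences of -0.22, -0.15 and -0.082 in the A100, B100 and 10 pairs. The 50th percentile was higher on the treated array, by 0.12, 0.10 and 0.16. After quantile normalization, which gives every array the same distribution, 45 of 48 members were still lower in the A100 pair (median -0.48), but only 28 of 48 in the B100 pair (median -0.04, with 51.9% of all genes lower). After scaling to a common median 47 of 48 were lower in both the A100 pair (median -0.77) and the B100 pair (median -0.35). Of all genes 59.8% and 61.5% were then lower in these pairs. That scaling moved the median of all genes in these pairs to -0.18 and -0.11, and relative to it the members stood at -0.59 and -0.24. The number lower under all 3 scalings was 45 for A100 and 28 for B100.

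**Figure D2:**
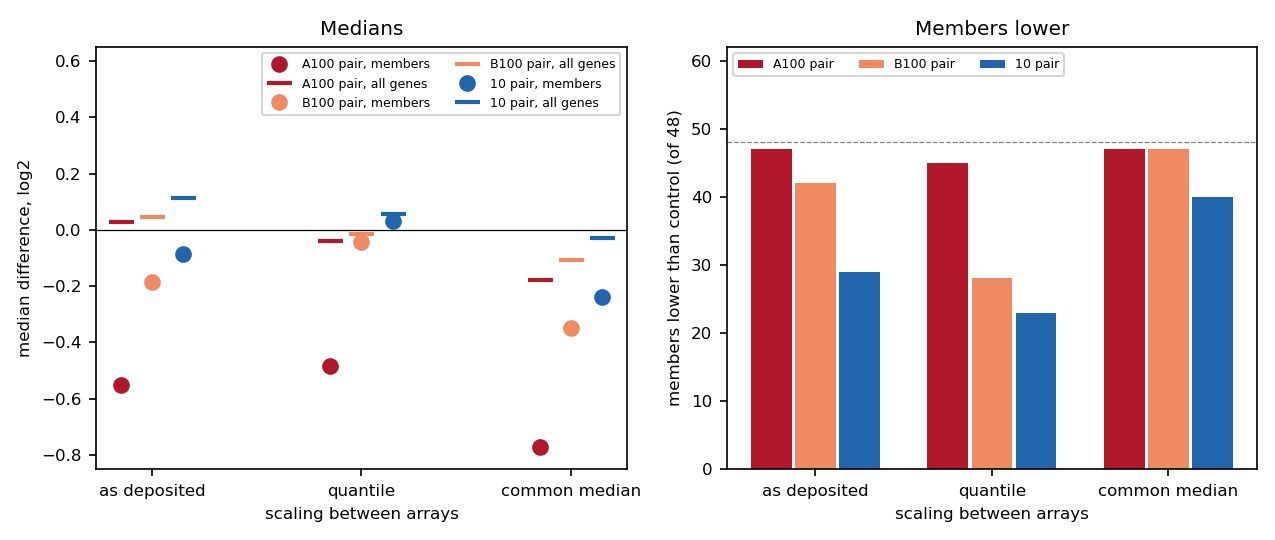
Left: median difference of the 48 members (circles) and of all 5173 genes (dashes) in each pair on the log2 scale, with the deposited values, after quantile normalization and after scaling to a common median. Right: number of members lower than the control of the same label, with the dashed line at 48. The A100 value stays between -0.77 and -0.48, while the B100 and 10 values approach 0 after quantile normalization.

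In the fit over all 6 arrays (limma, Benjamini-Hochberg adjustment over 6956 probe sets), no member passed the threshold of 0.05 at 100 µg/ml against the 3 controls. No probe set of the whole table did (0% called), while 83 lower and 149 higher ones had an unadjusted p under 0.05. No member was lower at an unadjusted p under 0.05 either, where 1.10% of all genes were. The adjusted p of the members ran from 0.957 to 0.999. Their log2 fold changes were below 0 for 46 of 48 members, against 42.6% of all genes, with a median of -0.34 against 0.07 for all genes. Without the treated A100 array 34 of 48 were below 0 and the median was -0.09, and without the treated B100 array the median was -0.57. Both 100 µg/ml arrays lay below all 3 controls for 11 members, KGD1, FUM1, SDH1, SDH2, SDH3, NDE1, QCR2, QCR6, CYT1, RIP1 and ATP16, against 7.35% of all genes. They lay above all 3 controls for ATP17 only, against 13.0% of all genes. After quantile normalization the first count was 8 of 48, with 9.50% of all genes, and after scaling to a common median 12 of 48, with 11.1%.

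Of the 11 TCA cycle enzymes outside succinate dehydrogenase, all were lower in the A100 pair, with a median difference of -0.66, and 9 in the B100 pair, with a median of -0.15 that came to 0.01 after quantile normalization. FUM1, the fumarase, gave 7091, 8573 and 8904 on the A100, B100 and 10 controls. The treated arrays gave 3161 for A100, 7041 for B100 and 7062 for the low dose. All 3 lay below every control, the treated A100 array far below and the others only just. Its log2 fold change at 100 µg/ml was -0.79 (SE 0.368, adjusted p = 0.957). Aconitase, ACO1, which carries an iron-sulfur cluster, stood at 8168, 7249 and 6532 in the controls and at 2734 on the treated A100 array, 33.5% of its control, but at 6785 on the treated B100 array and 6342 at 10 µg/ml. Only the treated A100 array was far from the rest, and the fold change of -0.76 (SE 0.40) rests on it.

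The other enzymes of the cycle ranged widely in the A100 pair. KGD1, the E1 subunit of 2-oxoglutarate dehydrogenase, had 7174, 7377 and 7008 in the controls, 3396 and 6182 at the high dose and 5822 at the low dose, so every treated array was below every control. Its E2 subunit KGD2 differed by -0.93, -0.05 and -0.87 in the A100, B100 and 10 pairs. LPD1, the E3 subunit that pyruvate dehydrogenase shares, differed by -0.41, -0.35 and 0.09. Both subunits of NAD-dependent isocitrate dehydrogenase were lower at 100 µg/ml, IDH1 by -1.04 and -0.33 and IDH2 by -0.66 and -0.06. The citrate synthase CIT1, at the entry of the cycle, differed by -0.53 and -0.21. Succinyl-CoA ligase differed least in that pair, with LSC2 at -0.34 and -0.15 and LSC1 at -0.20 and 0.14. LSC2 was the class member nearest 0 in the fit, with signals of 3279, 4281 and 3722 in the controls and 2579 and 3864 at the high dose, which overlap. Malate dehydrogenase MDH1 went opposite ways in the A100 (-0.62) and B100 (0.15) pairs.

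Succinate dehydrogenase, which belongs to both the cycle and the chain, was lower with all 4 subunits in each of the 3 pairs. SDH1, the flavoprotein subunit, had 3769.5, 3456 and 2597 in the controls, 1662 and 2501 at the high dose and 2582 at the low dose. Both high-dose arrays were below all controls, and the fold change was -0.66 (SE 0.306, adjusted p = 0.957). The iron-sulfur subunit SDH2 differed by -0.74, -0.26 and -0.43 in the A100, B100 and 10 pairs. SDH3, a membrane anchor with 8621, 9116 and 10654 in the controls, had 5154 and 8324 at the high dose and 5531 at the low dose, again without overlap. The other anchor, SDH4, differed by -0.34 and -0.18 at the high dose and by -0.83 at the low dose. The class medians were -0.74, -0.22 and -0.63, and -0.63, -0.03 and -0.42 after quantile normalization, where SDH3 (0.14) and SDH4 (0.045) were no longer lower in the B100 pair, nor SDH1 (0.028) in the 10 pair.

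All 3 NADH dehydrogenases were lower in both 100 µg/ml pairs under every scaling, though by only -0.0065 for NDE1 in the B100 pair after quantile normalization. NDE2, one of the enzymes that face the intermembrane space and oxidise cytosolic NADH, had 3678, 4688 and 3472 in the controls, 1776 and 4086 at the high dose and 2349 at the low dose. The treated B100 array lay within the range of the controls, and the fold change was -0.54 (SE 0.394). NDE1, the other external enzyme, had 9142, 10232 and 8258 in the controls and 6029.8, 8139 and 6402 on the treated arrays, all below every control (fold change at 100 µg/ml -0.39, SE 0.242). NDI1, which oxidises matrix NADH, went from 3763 to 1914 in the A100 pair and from 3046 to 2674 in the B100 pair. Its level in the low dose experiment's control was 2049.9, close to the treated A100 array and to the 2081 of the low dose array, so its groups overlap.

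**Figure D3:**
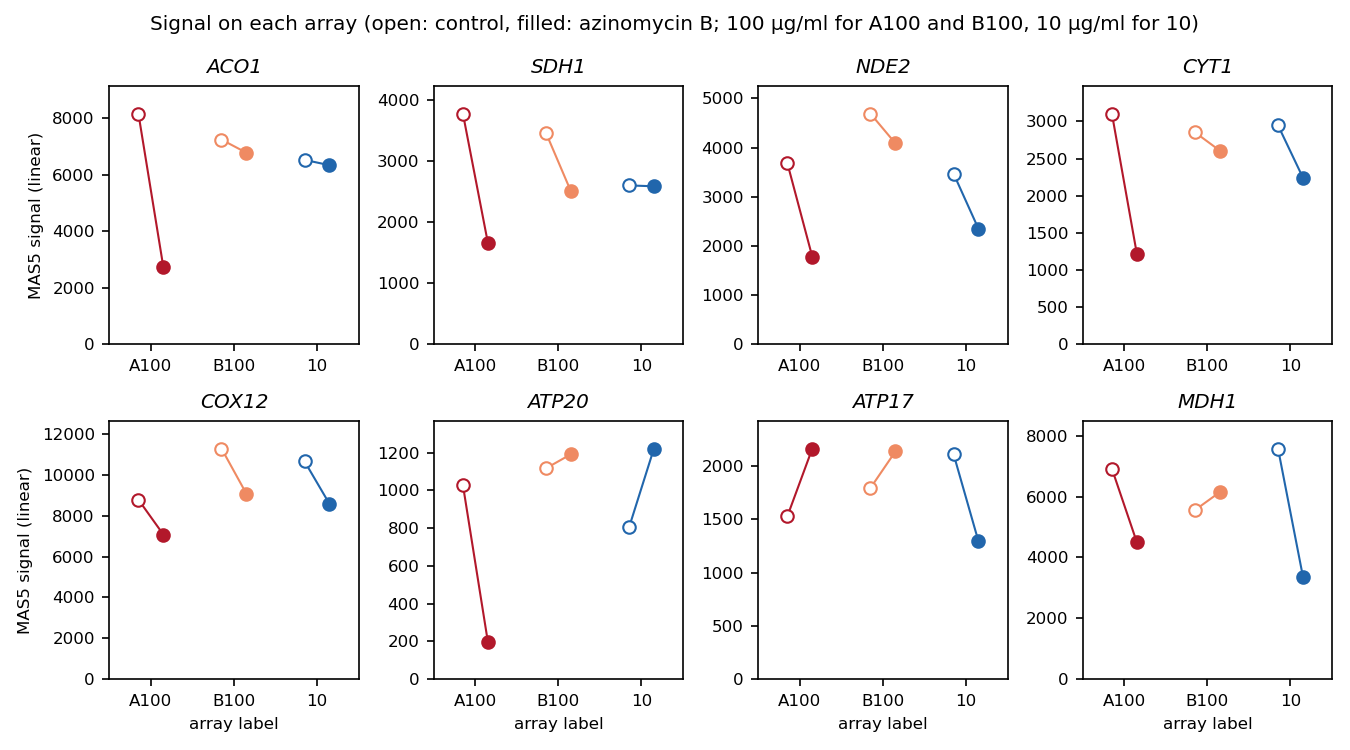
MAS5 signal (linear axis from 0) of 8 members on the 6 arrays; open circles are controls, filled circles treated arrays, and a line joins the arrays of 1 label. ACO1 and ATP20 are low on the treated A100 array alone, SDH1 and CYT1 are below all controls on both 100 µg/ml arrays, MDH1 is lowest at 10 µg/ml and ATP17 is higher than its control on both 100 µg/ml arrays.

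In the cytochrome bc1 complex all 9 members were lower in the A100 pair, but not evenly, and 8 in the B100 pair (7 after quantile normalization). CYT1 (cytochrome c1) gave 3104, 2853 and 2947 in the controls, 1219 and 2606 at the high dose and 2243 at the low dose, with every treated array below every control (fold change at 100 µg/ml -0.73, SE 0.36). The Rieske iron-sulfur protein RIP1 gave 6283, 7033 and 7181 in the controls, 3899 and 5958 at the high dose and 4379.9 at the low dose, also without overlap (-0.50, SE 0.265). A control probe set that the manufacturer named for RIP1, outside the tests, differed by -1.01, 0.14 and -0.24 in the A100, B100 and 10 pairs, where the tested one was at -0.69, -0.24 and -0.71. Both RIP1 probe sets thus put the A100 array low, and they disagree on the B100 array. With the core proteins COR1 and QCR2, CYT1 and RIP1 lay between -1.34 and -0.61 in the A100 pair, while the small subunits QCR6, QCR7, QCR8, QCR9 and QCR10 lay between -0.26 and -0.19. These groups were formed after the values were seen. In the B100 pair the small subunits, from -0.54 to -0.06, were no closer to 0 than the other 4, from -0.25 to 0.11. QCR9 was the nearest to 0 in the fit (-0.01, SE 0.270), with 5002, 5856 and 3895 in the controls and 4390.3 and 5269.9 at the high dose. A further QCR8 probe set with signals of only 41 to 91 was higher by 0.34 and 0.10 in the A100 and B100 pairs, against -0.26 and -0.54 for the strong one.

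The 7 cytochrome oxidase subunits among the members lay in a narrow band, from -0.72 to -0.30 in the A100 pair and from -0.37 to -0.13 in the B100 pair. The nuclear isoforms COX5A and COX5B are not members and are described below. COX12 had 8786, 11292 and 10664 in the controls, 7079 and 9078 at the high dose and 8581 at the low dose, a difference of -0.31 in each of the 3 pairs. The treated B100 array lay above the A100 control, so the groups overlap (fold change at 100 µg/ml -0.35, SE 0.237). After quantile normalization COX12 differed by -0.14, 0 and -0.04 in the A100, B100 and 10 pairs. COX9 went from 5719 to 3891 in the A100 pair and from 7352 to 5691 in the B100 pair (-0.55 and -0.37). COX4, the subunit that binds zinc, had the most negative A100 value (-0.72) and -0.15 in the B100 pair. COX6, COX8 and COX13 differed by -0.42, -0.30 and -0.47 in the A100 pair. COX7 was nearest to 0 in the fit (-0.19, SE 0.245), with 6598, 8017 and 6823 in the controls and 5352 and 7249 at the high dose. None of these 7 members had both 100 µg/ml arrays below all controls. After quantile normalization 4 of the 7 were lower in the B100 pair.

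ATP synthase spread widely in the A100 pair, from -2.28 to 0.50. Of its 12 subunits among the members 11 were lower in the A100 and 9 in the B100 pair, and 9 and 6 after quantile normalization. ATP20, subunit g, which acts in dimer formation, had 1028, 1117 and 803 in the controls, 199 and 1191 at the high dose and 1222 at the low dose. It was low on the treated A100 array alone, at 19.3% of its control, and its fold change of -0.96 (SE 0.689) turned to 0.29 without that array. ATP4, a subunit of the peripheral stalk, had a like pattern, with 2289, 2363 and 2236 in the controls, 1092 on the treated A100 array, 2454 on the treated B100 array and 2689 at 10 µg/ml. The catalytic subunit ATP2 was lower in all 3 pairs (-0.75, -0.48 and -0.37). Its partner ATP1 was at -0.55, -0.03 and 0.01. In the central stalk ATP3 and ATP16 were at -0.60 and -0.61 in the A100 pair, while ATP15 was at -0.0045, with 4984, 5329.7 and 4335 in the controls and 4969 and 4833 at the high dose. The peripheral subunits ATP5 and ATP7 were at -0.30 and -0.52, and ATP18, subunit i/j, at -0.02.

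ATP17, subunit f of the membrane part, was the only member higher in both 100 µg/ml pairs. Its signals were 1530.2, 1794.5 and 2114 in the controls, 2165 and 2137 at the high dose and 1295 at the low dose. The high-dose arrays lay just above all controls and the low-dose array below them. With each dose set against the controls of its own experiment, ATP17 was the single member at an unadjusted p under 0.05 in the limma test of the difference between doses (1.07, SE 0.389, adjusted p = 0.966), where 0% of probe sets were called and 89 lower and 145 higher ones had an unadjusted p under 0.05. Of the inhibitors of the enzyme's hydrolytic activity, INH1 had 4426, 4967 and 6769 in the controls and 3170.4 and 4553 at 100 µg/ml (-0.48 and -0.13 in the pairs), and STF1 was at -0.26 and -0.31. ATP14, part of the peripheral stalk, has 2 tested probe sets, which gave -0.33 and -0.39 in the A100 pair and -0.04 and -0.01 in the B100 pair.

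At 10 µg/ml the members went both ways. In the 10 pair 29 of 48 were lower, against 38.8% of all genes, with a median of -0.08 against 0.11 for all genes. Relative to the median of all genes the members stood at -0.20, near the -0.23 of the B100 pair, and 37 of 48 lay below it. After quantile normalization 23 of 48 were lower, against 43.9% of all genes, with a median of 0.03 against 0.06. Across the 3 pairs 26 members were lower in each, against 11.9% of all genes. In the fit no member passed (0% of probe sets called, with 171 lower and 120 higher at an unadjusted p under 0.05), and 38 of 48 log2 fold changes were below 0, against 43.6% of all genes. The spread for the single array at this dose is borrowed from the other groups. That array lay below all 3 controls for 25 members, against 21.1% of all genes, and for 13 after quantile normalization, with 24.7% of all genes. Direct comparison of 100 with 10 µg/ml called no member and 0% of probe sets, with 163 lower and 232 higher at an unadjusted p under 0.05.

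The lowest log2 fold changes at 10 µg/ml were those of MDH1, COX13 and KGD2, and at 100 µg/ml, against the same controls, those of ATP20, FUM1 and ACO1. MDH1, mitochondrial malate dehydrogenase, had 6914, 5554.5 and 7578 in the controls, 4499.8 and 6146 at the high dose and 3368 at the low dose. The low dose array was the lowest of the 6, with a log2 fold change of -0.97 (SE 0.336, adjusted p = 0.761). COX13 followed with 2845 against 5329, 6160 and 5197 in the controls (-0.96, SE 0.334). These were the 2 members lower at an unadjusted p under 0.05, against 2.28% of all genes. KGD2 had 2251 against 4157, 4266 and 4117 in the controls (-0.89, SE 0.408). In the 10 pair SDH3 and SDH4 differed by -0.94 and -0.83, RIP1 by -0.71 and ATP17 by -0.70. On the other side were ATP20 (0.60), IDH1 (0.44) and ATP5 (0.41), and 8 of 12 ATP synthase subunits were higher in that pair, with a class median of 0.17. Of all 5173 genes 3162 were higher in that pair too, with a median of 0.11. Under all 3 scalings 23 members were lower in this pair and 8 higher, and 17 changed direction. The A100 and 10 differences correlated at r = -0.094 across the 48 members, as a description of 4 arrays.

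The choice of control matters for a few members. The low dose experiment's control was lower than the mean of the A100 and B100 controls for 32 of 48 members, against 51.4% of all genes, with a median of -0.13. QCR8 (-0.73), NDI1 (-0.72), IDH1 (-0.65) and ATP5 (-0.59) stood lowest in it and LSC1 (0.68) and INH1 (0.53) highest. With the controls of the same experiment only, the median at 100 µg/ml was -0.37 and 47 of 48 members were below 0.

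Low values cluster on the treated A100 array among probe sets whose names carry the numbers 7600 to 8500, a range chosen after the values were seen, where 13.0% of 637 genes were at least 2-fold lower in the A100 pair, against 4.39% of the other 4536. ATP20, ATP4, ATP15, FUM1, LSC1, IDH2 and CYT1 have probe sets in that range, and 4 of the 9 members at least 2-fold lower are among them. The 41 other members had a median of -0.53 in the A100 pair, with 40 lower. The part of the range in the values of the 7 was not tested.

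Other genes of the same pathway did not all go with the members. Of 10 further genes for TCA cycle enzymes and their relatives, all were lower in both 100 µg/ml pairs, with medians of -1.04 and -0.38. All 10 were lower after quantile normalization too. None passed the test. The cytosolic isocitrate dehydrogenase IDP2 had 3760.0, 5392 and 3578 in the controls and 1253 and 3333 at the high dose (-1.02, SE 0.450, adjusted p = 0.957). CIT3, a further mitochondrial citrate synthase, was at -1.14 (SE 0.418), the peroxisomal IDP3 at -1.03 (SE 0.329), and SHH4, a relative of SDH4, at -0.99 (SE 0.585). Of 4 ADP and phosphate carriers all were lower in both 100 µg/ml pairs, led by the ADP/ATP carrier AAC1 (-0.98, SE 0.394) and the phosphate carrier MIR1 (-0.57, SE 0.276). In the pyruvate dehydrogenase list 6 of 7 were lower in the A100 and 4 in the B100 pair, with LAT1, the E2 subunit, at -0.55 in the fit and the kinases PKP1 and PKP2, which inhibit the complex, at 0.35 and -0.23.

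Genes that build the complexes, rather than form part of them, went both ways. Of 35 assembly factors 18 were lower in the A100 and 9 in the B100 pair, against 48.2% and 44.2% of all genes. The medians of the factors were 0.00 and 0.28. These became -0.14 and 0.16 after quantile normalization and -0.21 and 0.13 after scaling to a common median. In the fit 2967 of all 5173 genes were above 0, with a median of 0.07. Of the 35 factors 23 were above 0 there, with a median of 0.18, and none passed. PET117 (0.94, SE 0.444) and SHY1 (0.63, SE 0.273), both of cytochrome oxidase assembly, and COX10, the heme A synthesis enzyme (0.81, SE 0.324), had the values farthest from 0, and MZM1, of complex III assembly, was at 0.50 (SE 0.255). Ubiquinone synthesis genes were lower in 5 of 10 cases in the A100 and 1 of 10 in the B100 pair. In the fit COQ2 was at 0.70 (SE 0.281), COQ1 and COQ10 at 0.68 each and COQ6 at 0.63. Against the controls of the same experiment COQ1 and COQ6 were at 0.39 and 0.37, and COQ2 and COQ10 at 0.72 and 0.58. Many of these genes have far weaker signals than the members, as PET117 with 174 ± 64.8 (SD, n = 3) and COQ2 with 60.7 ± 2.60 (SD, n = 3) in the controls, and the part of signal strength in the contrast was not tested. Among other enzymes that feed electrons into the chain, DLD1, a D-lactate dehydrogenase, was at -0.67 and the glycerol 3-phosphate dehydrogenase GUT2 at -0.25, with CYB2 (0.18) and DLD2 (-0.01) nearer 0.

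**Figure D4:**
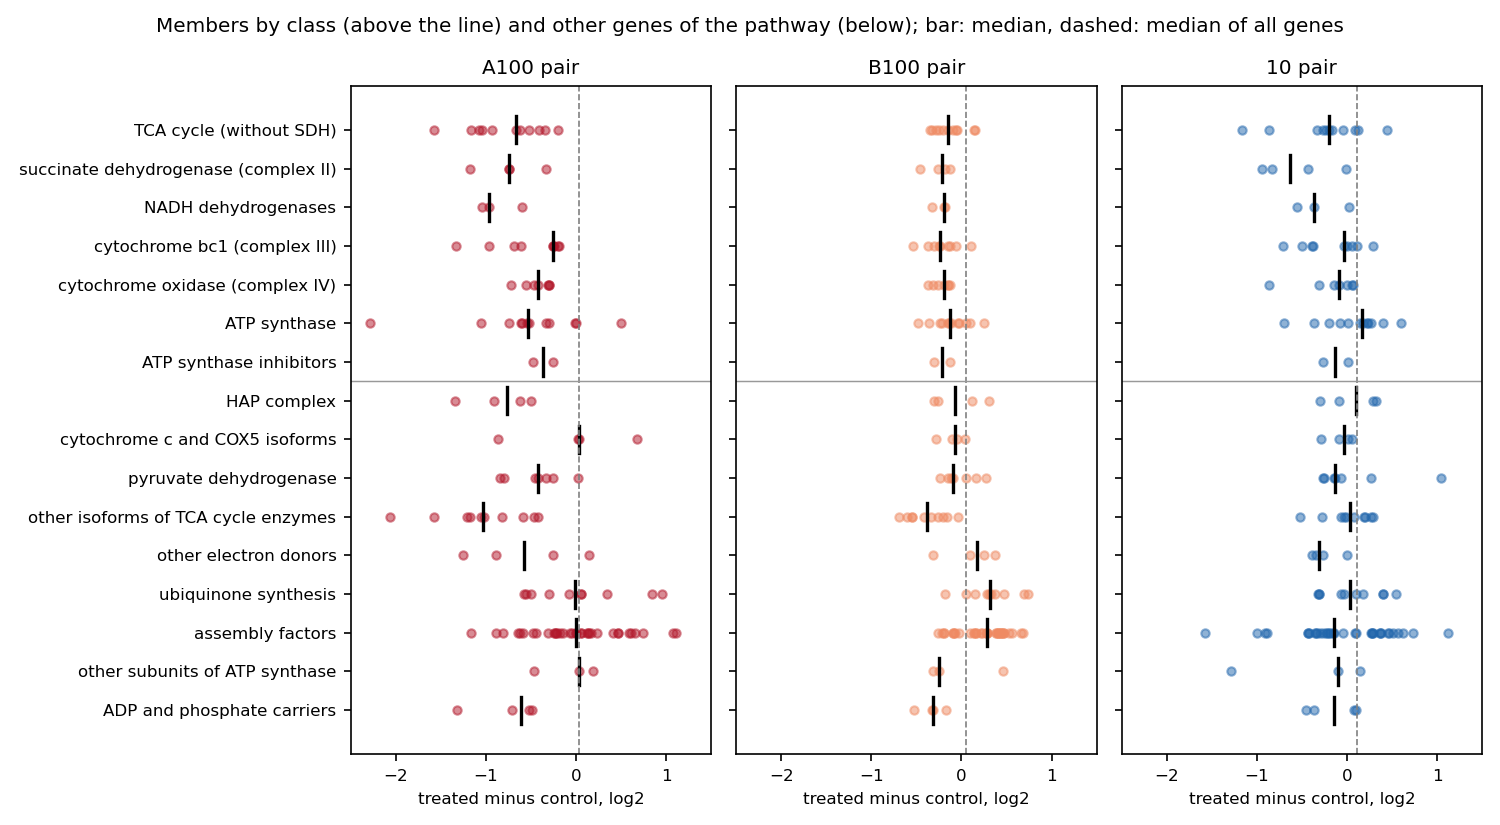
Treated minus control of the same label on the log2(signal + 16) scale for members by class (above the grey line) and other genes of the pathway (below it), 1 panel for each pair; dots are genes, black bars list medians and the dashed line the median of all genes. In the A100 and B100 panels the medians of the member classes and of the list labelled other isoforms of TCA cycle enzymes lie left of the dashed line. The assembly factors spread on both sides.

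The aerobic and hypoxic isoforms of 1 cytochrome oxidase subunit went opposite ways in the fit at 100 µg/ml, and neither passed the test. In the A100 and B100 pairs COX5A differed by -0.86 and -0.28 and COX5B by 0.68 and 0.04. After scaling to a common median COX5B was lower in the B100 pair, as were COX5A, CYC1 and CYC7. COX5A, the aerobic isoform, had 5886, 7072 and 5458 in the controls and 3232 and 5814 at the high dose (fold change -0.49, SE 0.316). COX5B, the hypoxic isoform, had 1055, 1385 and 985 in the controls and 1697 and 1423 at the high dose, both above all controls (0.46, SE 0.281). Of the cytochrome c genes, CYC1 and CYC7 were within 0.11 of 0 in the A100 and B100 pairs. Of the other ATP synthase genes, TIM11 was at -0.37, STF2 at -0.05 and ATP19 at 0.05.

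HAP4, the regulated activation subunit of the Hap2/3/4/5 complex, was lower in all 3 pairs as well. It had 3563, 3257 and 3082 in the controls, 1398.5 and 2723 at the high dose and 2899 at the low dose, so each treated array was below every control. The differences in the A100, B100 and 10 pairs were -1.34, -0.26 and -0.09, and the fold change at 100 µg/ml of -0.75 (SE 0.335) did not pass (adjusted p = 0.957). HAP2, HAP3 and HAP5, which bind DNA, were at -0.91, -0.50 and -0.62 in the A100 pair and at 0.11, -0.30 and 0.31 in the B100 pair. Of the subunits encoded in mitochondrial DNA, OLI1 differed by -5.36 and -0.99 and COX1 by -3.67 and -1.14 in the A100 and B100 pairs. Both were lower in the 10 pair too (-2.48 and -1.53), and neither passed the test. OLI1 had 1969, 267 and 1218 in the controls, a log2 range of 2.81, and only 32.4 and 126 at the high dose. COX1 had 985, 434 and 666 in the controls and 62.9 and 188 at the high dose. COX2, COX3, COB, ATP6 and ATP8 have probe sets on the array but were not among the genes tested.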

How the data were processed

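The authors deposited an intensity (a linear MAS5 signal) for each probe set, and MAS5 is named in the submitters' processing notes, with no version or settings. The 2% trimmed mean of the signals was between 500.1 and 500.88 on the 6 arrays once control probe sets were left out, so the values were used without further scaling. Gene names come from the platform annotation.

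Of 9335 probe sets, 60 controls and the 25% with the lowest mean were left out, which left 6956 tested, 5670 with 1 gene name (5173 genes), 282 with several and 1004 with none. The probe set with the highest mean stood for a gene. log2(signal + 16) was fitted with limma 3.58.1 in R 4.3.3, with 1 mean per group over 6 arrays (3 residual degrees of freedom), a variance trend, two-sided tests and Benjamini-Hochberg adjustment over all probe sets tested, threshold 0.05. The fit was tested on simulated data. The difference between doses used a control group for each experiment. The number of arrays limits the precision.

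The rule that finds the members reads gene names only, but the choice of these members, and of the lists and tests, was made with earlier results of these data known. Named are, in each class, the 2 largest and the nearest to 0 by fold change at 100 µg/ml, up to 4 genes of each other list, and members singled out by their values. Fold changes without an adjusted p did not pass. Alternatives were other scalings, pseudocounts and filters, no trend, each array left out, the label as a block and other controls. The pairing of arrays and their grouping into experiments rest on the labels alone. Promoter and protein sequences were not used here.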

Additional observations from a re-analysis of the deposited data

How the results depend on the processing

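No member was called in any of the 3 comparisons under any alternative run (other scalings, a pseudocount of 1 or 64, no filter on low signals or a stricter one, no variance trend, each array left out in turn, the label as a block, controls of the same experiment, and, chosen after seeing the data, without probe sets numbered 7600 to 8500). The median log2 fold change at 100 µg/ml ran from -0.57 to -0.086 as arrays were left out and was -0.37 with the replicate block, -0.49 after scaling to a common median and -0.25 after quantile normalization. At 10 µg/ml the median was 0.025 after quantile normalization and -0.43 after scaling to a common median, and from -0.27 to -0.12 as arrays were left out. The replicate block left 1 residual degree of freedom and changed no call. The label pairs are a pairing by name only. The difference between the A100 and B100 controls and that between the treated arrays correlated at r = -0.071 across genes. A value from so few arrays cannot show whether they were paired.

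Members near 0 turned direction in the fit at 100 µg/ml: QCR9 (0.069) and ATP5 (0.025) after quantile normalization, and ATP15 after scaling to a common median (-0.14), with the replicate block (-0.073) and against the controls of the same experiment (-0.073). As single arrays were left out, the ranges that crossed 0 were IDH1 -1.02 to 0.080, LSC2 -0.53 to 0.048, NDE2 -1.13 to 0.062, COR1 -0.98 to 0.020, QCR8 -0.40 to 0.043, QCR9 -0.17 to 0.12, COX4 -0.66 to 0.018, COX6 -0.50 to 0.040, COX7 -0.41 to 0.026 and COX13 -0.53 to 0.025. For ATP synthase they were ATP1 -0.44 to 0.069, ATP4 -1.06 to 0.096, ATP5 -0.27 to 0.25, ATP15 -0.073 to 0.076 and ATP20 -2.21 to 0.29. For all of these but QCR8, leaving out the treated A100 array turned the sign. The cause was not tested. The number of arrays and the low-dose group of 1 array limit what the tests can call.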
